A study of Mus musculus with 9 samples.

Results

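Replication-dependent histone genes supply most of the histone protein that packages newly made DNA. They were taken as the protein-coding genes whose symbol in the GENCODE annotation of the mouse build GRCm38 starts with Hist1h, Hist2h, Hist3h or Hist4, pseudogenes left out. Of 67 such symbols, 59 had a row among the 39179 gene rows of the count table, and the other 8 (Hist1h2bh, Hist1h2bm, Hist1h3d, Hist1h3f, Hist1h3g, Hist1h3h, Hist1h3i and Hist2h2bb) were not analysed here. A filter on low counts left 49 of the 59 among the 18576 genes tested.

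RNA came from mouse bone marrow cells sorted as LSK, that is, without markers of mature blood lineages and with Sca1 and cKit on the surface, a fraction that holds blood stem cells and early progenitors. All animals were C57BL/6, aged 6 months, and had been given poly(I:C) in 5 injections; this synthetic double-stranded RNA raises an interferon response, which switches on Cre from the Mx1 promoter. Wild-type animals were Dnmt3a+/+ with Mx1-Cre (3 libraries, named wt_Mx_pos_820, wt_Mx_pos_823 and wt_Mx_pos_825 in the labels). Mutant animals were Dnmt3a+/m with Mx1-Cre, which had recombined a conditional mutant allele at the endogenous locus of this DNA methyltransferase gene (4 libraries, cKI_Mx_pos_824, cKI_Mx_pos_827, cKI_Mx_pos_829 and cKI_Mx_pos_830). Cre-negative animals carried the conditional allele without Cre (2 libraries, cKI_Cre_neg_780 and cKI_Cre_neg_819), and the design text calls them Dnmt3a+/-; their difference from wild type therefore joins the allele with the lack of Cre. The Mx1 promoter answers interferon in many cell types, so recombination was not limited to LSK cells. The labels do not say that the libraries of a group came from separate animals, so p-values measure the spread between libraries only.

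Gene counts per library ranged from 47792306 to 58405879. All 10 markers of LSK stem and progenitor cells had counts. Levels are given in CPM (gene counts scaled to a common library size with TMM factors and written per 1e6). The summed LSK markers were 2227 CPM in library cKI_Cre_neg_819 and 2778 to 3358 CPM in the other 8. Dnmt3a itself stood at 93.5 to 118 CPM in the Cre-negative libraries and at 148 to 174 CPM in the other 7. The Cre-negative libraries stood apart from each other: summed erythroid markers reached 3966 CPM in library cKI_Cre_neg_819, against 875 to 1125 CPM in the other 8, and summed neutrophil markers were 349 CPM in library cKI_Cre_neg_780 and 52.7 CPM in cKI_Cre_neg_819. Wild-type library wt_Mx_pos_820 had the lowest histone levels, and group medians are also given with these libraries left out.

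Histones form the spool on which DNA is wound: the core histones H2A, H2B, H3 and H4 make up the nucleosome particle, and the linker histone H1 binds the DNA between particles. Most of the genes described here are switched on together as cells enter S phase, the phase of DNA replication. Their transcripts are destroyed when replication ends. Unlike other mRNAs they usually end in a short stem-loop instead of a poly(A) tail, and the protein encoded by Slbp binds this stem-loop; some of these genes can also give polyadenylated transcripts in differentiated cells. The libraries were made from total RNA after removal of ribosomal RNA, so transcripts without poly(A) were held.

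Hist1 genes dominated. This group on chromosome 13 (21715763 to 23934851 of GRCm38) had 47 members and 96.6% of the 1270596 histone counts. It lay in 2 blocks, with 20 members between 21715763 and 22043676 and 27 members between 23531050 and 23934851. Hist2 on chromosome 3 (96219865 to 96269141) had 9 members and 2.15% of the counts. Hist3 on chromosome 11 (58948920 to 58956830) had 2 members and 0.370%, and the single Hist4 gene on chromosome 6 (136801553 to 136804415) had 0.888%.

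The stem-loop that marks these transcripts was searched with the histone stem-loop consensus downstream of each stop codon in the GENCODE transcript models, on the transcript strand. It was found in 41 of the 59 models, 21 to 58 bases after the stop codon (median 31). Of the other 18 models, 10 end at the stop codon and another 2, Hist1h2af and Hist1h2ah, within 2 bases of it. The search had no room in these. The remaining 6 had 37 to 2192 bases after the stop codon and no match. They are Hist2h3b, Hist1h1a, Hist1h2bc, Hist1h2bq, Hist1h2br and Hist2h2be. The same search within 100 bases of the stop codon matched 3 of 21695 other protein-coding genes (0.0138%): H2afx, H2bfm and Nemp1. H2afx encodes the DNA damage-responsive variant H2A.X. A match is a description of letters, and absence from a model says nothing about the transcript in the cell.

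The following loops show the forms found and how H4 genes differ from the rest. They are written 5′ to 3′ in DNA letters from GENCODE models on GRCm38, and capitals mark the 4 bases of the loop between the paired arms.
Hist1h1c, chr13:23739512-23739527, plus strand: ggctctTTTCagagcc
Hist1h2bb, chr13:23747203-23747218, plus strand: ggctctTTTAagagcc
Hist1h3b, chr13:23752820-23752835, plus strand: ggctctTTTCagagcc
Hist1h4d, chr13:23581950-23581965, plus strand: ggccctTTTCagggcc
Hist1h4j, chr13:21735437-21735452, plus strand: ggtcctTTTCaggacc
Hist1h4i, chr13:22040966-22040981, minus strand: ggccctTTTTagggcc
The 6 stem pairs were complementary in all 41 loops, but the search set much of this pairing in advance. Its pattern required gg at the start, cc at the end, and a t and an a beside the loop. Between these it allowed only c or t on the left arm and a or g on the right. It also fixed T at some of the loop bases. The arm ggctct was present in 29 of the 29 loops outside H4 and in 0 of the 12 in H4, where 10 had ggccct and 2 had ggtcct. The loop bases were TTTC in most members; TTTA, TTTT and TCTC were the other forms, and 7 different stem-loops were found in all. The form printed for Hist1h1c was held by 23 members from H1, H2A, H2B and H3, and that of Hist1h4d by 7 H4 genes.

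The promoters of 5 members whose levels are described next are shown because they stand for the linker, core and H4 patterns. Each is the 150 bases before the RefSeq start site on GRCm38.p6, 5′ to 3′ on the gene's strand, and capitals mark CCAAT (the CCAAT box), TATAAA (the TATA box), ATTTGCAT (the octamer) and AAACACA (the element described in H1 promoters), or the reverse complement of one of them.
Hist1h1b, chr13:21780626-21780775, minus strand: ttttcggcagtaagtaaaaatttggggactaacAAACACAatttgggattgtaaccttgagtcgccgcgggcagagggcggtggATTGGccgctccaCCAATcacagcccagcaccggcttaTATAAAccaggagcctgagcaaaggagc
Hist1h1c, chr13:23738657-23738806, plus strand: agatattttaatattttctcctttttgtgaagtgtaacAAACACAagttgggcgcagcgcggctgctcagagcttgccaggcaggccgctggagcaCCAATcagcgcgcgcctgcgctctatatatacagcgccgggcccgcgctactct
Hist1h2bg, chr13:23571250-23571399, plus strand: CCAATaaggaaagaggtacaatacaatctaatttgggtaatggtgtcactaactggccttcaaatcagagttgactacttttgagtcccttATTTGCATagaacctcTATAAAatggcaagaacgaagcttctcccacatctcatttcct
Hist1h4f, chr13:23551669-23551818, minus strand: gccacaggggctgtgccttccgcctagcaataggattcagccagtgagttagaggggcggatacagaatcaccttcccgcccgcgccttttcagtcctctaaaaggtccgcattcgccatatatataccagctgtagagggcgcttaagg
Hist1h4i, chr13:22041363-22041512, minus strand: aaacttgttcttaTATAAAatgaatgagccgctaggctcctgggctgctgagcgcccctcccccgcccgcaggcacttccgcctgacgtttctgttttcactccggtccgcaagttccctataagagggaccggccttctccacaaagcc
RefSeq promoters, 250 bases before to 50 bases after the start, were matched for 55 of the 59 members. On both strands of these longer windows CCAAT was present for all 43 members outside H4 and for 3 of 12 in H4, against 41.1% of all 27025 genes with a promoter. TATAAA was present for 32 of 55 members, against 15.7% of all genes. The octamer was present for 7 of 18 H2A genes and 5 of 13 H2B genes and for none of the 24 in H1, H3 and H4, against 1.97% of all genes. AAACACA was present for 5 of 6 H1 genes, against 8.22% of all genes. Each motif was counted on its own, so neighbouring matches of different motifs may share bases, and a match is a description and not a binding site. Windows of neighbouring H2A and H2B genes can overlap, so the same site may be counted for both genes. This was so for the octamer of Hist1h2ae with Hist1h2bg, of Hist1h2aa with Hist1h2ba and of Hist1h2ah with Hist1h2bk. A TATAAA site was likewise counted for both genes of pairs such as Hist1h2ad with Hist1h2bf and Hist1h2ak with Hist1h2bn.

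Linker histone H1 took 66.3% of all histone counts from 6 genes. H2B took 17.7% (15 genes), H4 7.79% (13), H3 4.75% (7) and H2A 3.40% (18). These shares depend on how many reads can be placed: for each member, the share of 50-base windows of its transcripts that occur in no transcript of another gene was computed. Its median was 98.9% in H1 and 27.0% in H2A. Among the 12 members at 80% or more, H1 took 87.8% to 88.7% of the counts as group means. This cut kept all H1 genes but Hist1h1e, only Hist1h2ac of H2A and no H3 gene. The choice of members thus raises the H1 share, which is no check of the share over all members. Counts of core histone genes with near-identical copies are uncertain. The 10 members that failed the filter had 0 to 25 counts over all 9 libraries, and Hist2h2aa1, Hist2h2aa2, Hist2h3b and Hist2h3c1, listed at 0 throughout, had no unique window.

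Among H1 genes, levels per kilobase of exon were highest for Hist1h1a (ENSMUSG00000049539, chromosome 13, 23763666 to 23764406), followed by Hist1h1b and Hist1h1c. Their means over the 9 libraries were 844, 399 and 174 CPM per kilobase. The order after Hist1h1a depends on the gene models. That of Hist1h1b has 743 bases of exon and that of Hist1h1d 7425, 4884 of them past the stem-loop. In CPM not divided by length, Hist1h1a averaged 626, Hist1h1e 306, Hist1h1b 297, Hist1h1d 285 and Hist1h1c 272. Per kilobase of unique windows Hist1h1e (239) stood above Hist1h1c (197). Hist1h1e shares 496 bases with Hist1h2be on the same strand, so its level may depend on how reads there were assigned. Of all 41 models with a stem-loop, 20 run over 100 bases past it, so ranks in other classes may depend on models too. Hist1h1a stood at 430.3, 744 and 668 CPM in wild-type libraries wt_Mx_pos_820, wt_Mx_pos_823 and wt_Mx_pos_825, at 776, 709, 576 and 596 CPM in mutant libraries cKI_Mx_pos_824, cKI_Mx_pos_827, cKI_Mx_pos_829 and cKI_Mx_pos_830, and at 528 and 602 CPM in Cre-negative libraries cKI_Cre_neg_780 and cKI_Cre_neg_819. Library wt_Mx_pos_820 was lowest and the groups overlapped. In the same order of libraries, Hist1h1b (ENSMUSG00000058773, chromosome 13, 21779883 to 21780625) stood at 197, 369 and 324 CPM in wild-type libraries, 357, 309, 260.0 and 289 CPM in mutant libraries, and 230.2 and 334 CPM in Cre-negative libraries. Hist1h1c (ENSMUSG00000036181, chromosome 13, 23738808 to 23740367) stood at 162, 222 and 275 CPM, 419, 348, 214 and 255 CPM, and 374 and 176 CPM. The 2 genes did not keep the same order of libraries: library cKI_Cre_neg_780 was low for Hist1h1b and second highest for Hist1h1c, and cKI_Cre_neg_819 was the reverse. Hist1h1t, the linker histone of the testis, was the lowest H1 gene at 0.686 CPM per kilobase.

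Core histone levels spanned a wide range within each class. The leading H2B gene, Hist1h2bb, averaged 379 CPM per kilobase, with 144, 233 and 198 CPM in wild-type libraries, 234, 209.5, 162 and 192 CPM in mutant libraries and 143 and 216 CPM in Cre-negative libraries. Hist1h2bn followed at 189.8 CPM per kilobase, but 13.6% of its windows were unique. Hist1h2bg, the third, averaged 83.1 CPM per kilobase, with 24.9, 49.8 and 62.5 CPM in wild-type libraries, 74.6, 68.1, 36.9 and 41.3 CPM in mutant libraries and 74.4 and 29.6 CPM in Cre-negative libraries. As with the H1 pair, cKI_Cre_neg_780 was among the lowest libraries for Hist1h2bb and among the highest for Hist1h2bg. The leading H3 genes were Hist1h3b, Hist1h3c and Hist1h3a, at 76.8, 43.3 and 40.6 CPM per kilobase. Those of H4 were Hist1h4f, Hist1h4d and Hist1h4k, at 58.7, 57.3 and 30.9 CPM per kilobase. The first 2 differ by less than their spread between libraries: Hist1h4f ranged from 10.6 to 44.5 CPM and Hist1h4d, a longer model, from 34.8 to 115 CPM. H2A was led by Hist1h2af, Hist1h2ab and Hist2h2ac, at 35.7, 31.0 and 24.4 CPM per kilobase, of which Hist1h2af had 6.00% unique windows. Per kilobase of unique windows, 9 of these 15 genes still led their classes.

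**Figure D1:**
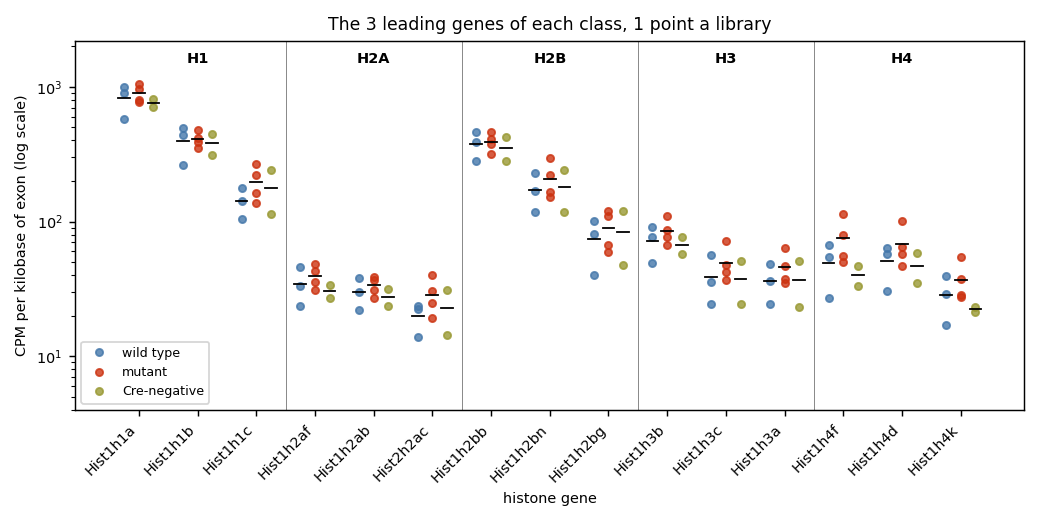
Level of the 3 leading genes of each histone class in CPM per kilobase of exon (log axis), 1 point a library, coloured by group, with a black bar at each group mean. Hist1h1a leads at a mean of 844 CPM per kilobase, and the points of the 3 groups overlap for most genes.

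Head-to-head pairs of an H2A and an H2B gene, which start from a shared stretch of DNA, numbered 12. Their starts lay 175 to 305 bases apart (median 258.5). Both genes were tested in 9 pairs, and the H2B gene stood above its H2A partner per kilobase of exon in 8 of these, each time in all 9 libraries. Hist1h2bg averaged 83.1 and its partner Hist1h2ae 8.72 CPM per kilobase, and Hist1h2bn 189.8 and its partner Hist1h2ak 14.8. The exception was on chromosome 3, where Hist2h2ac averaged 24.4 and Hist2h2be 8.0 CPM per kilobase. This order depends on the gene models, 520 bases of exon for Hist2h2ac and 2620 for Hist2h2be, 2192 of them after the stop codon. In CPM not divided by length Hist2h2be stood higher in each library, such as 18.6 against 7.19 CPM in wt_Mx_pos_820. Per kilobase of unique windows the H2B gene was higher in 7 of 9 pairs, and Hist1h2an with Hist1h2bp was the pair that changed order.

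**Figure D2:**
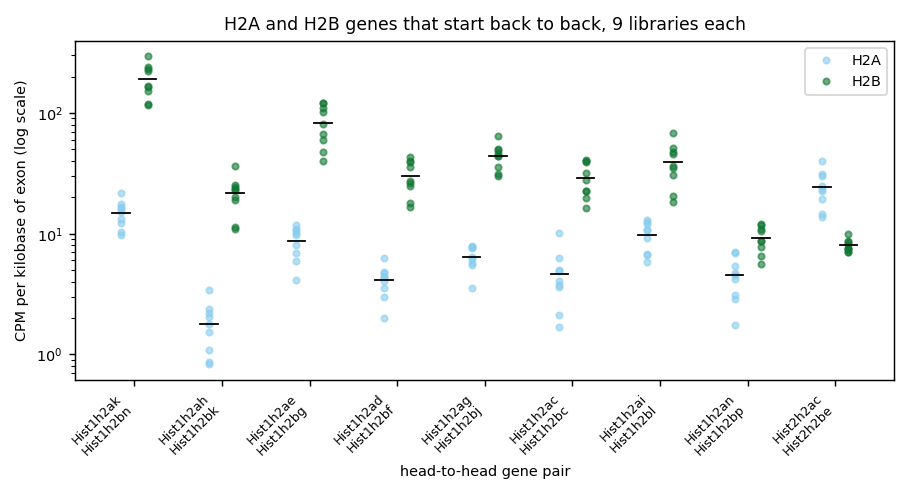
Level of H2A (light blue) and H2B (green) genes in the 9 head-to-head pairs in which both were tested, in CPM per kilobase of exon (log axis), 1 point a library with a black bar at the mean. Green lies above light blue in 8 of 9 pairs, and Hist2h2ac with Hist2h2be at the right is the exception. The gene model of Hist2h2be has 2620 bases of exon and that of Hist2h2ac 520.

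Libraries of the same group differed more than the groups. Histone genes took 0.177%, 0.272% and 0.289% of gene counts in wild-type libraries wt_Mx_pos_820, wt_Mx_pos_823 and wt_Mx_pos_825, 0.364%, 0.312%, 0.240% and 0.277% in mutant libraries cKI_Mx_pos_824, cKI_Mx_pos_827, cKI_Mx_pos_829 and cKI_Mx_pos_830, and 0.272% and 0.217% in Cre-negative libraries cKI_Cre_neg_780 and cKI_Cre_neg_819. The group means were 0.246% ± 0.0601 (SD, n = 3), 0.298% ± 0.0528 (SD, n = 4) and 0.245% ± 0.0391 (SD, n = 2), and each group overlapped the others. Without library wt_Mx_pos_820 the wild-type mean was 0.280%, and without cKI_Mx_pos_824 the mutant mean was 0.276%. In these bulk samples, fewer cells in S phase and less histone RNA per cell cannot be told apart.

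Library wt_Mx_pos_820 was the lowest of all 9 for 40 of the 49 tested members, and library cKI_Mx_pos_824 the highest for 33. The median member lay at -0.69 in wt_Mx_pos_820 and at 0.57 in cKI_Mx_pos_824 on the log2 scale, relative to each gene's mean over libraries. For single members the highest library exceeded the lowest by 1.42-fold (Hist2h2be) to 5.96-fold (Hist1h2ac), with a median of 2.54-fold. In 0 of 49 members did the fitted difference between mutant and wild type exceed the larger of both within-group ranges on the log2 scale.

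**Figure D3:**
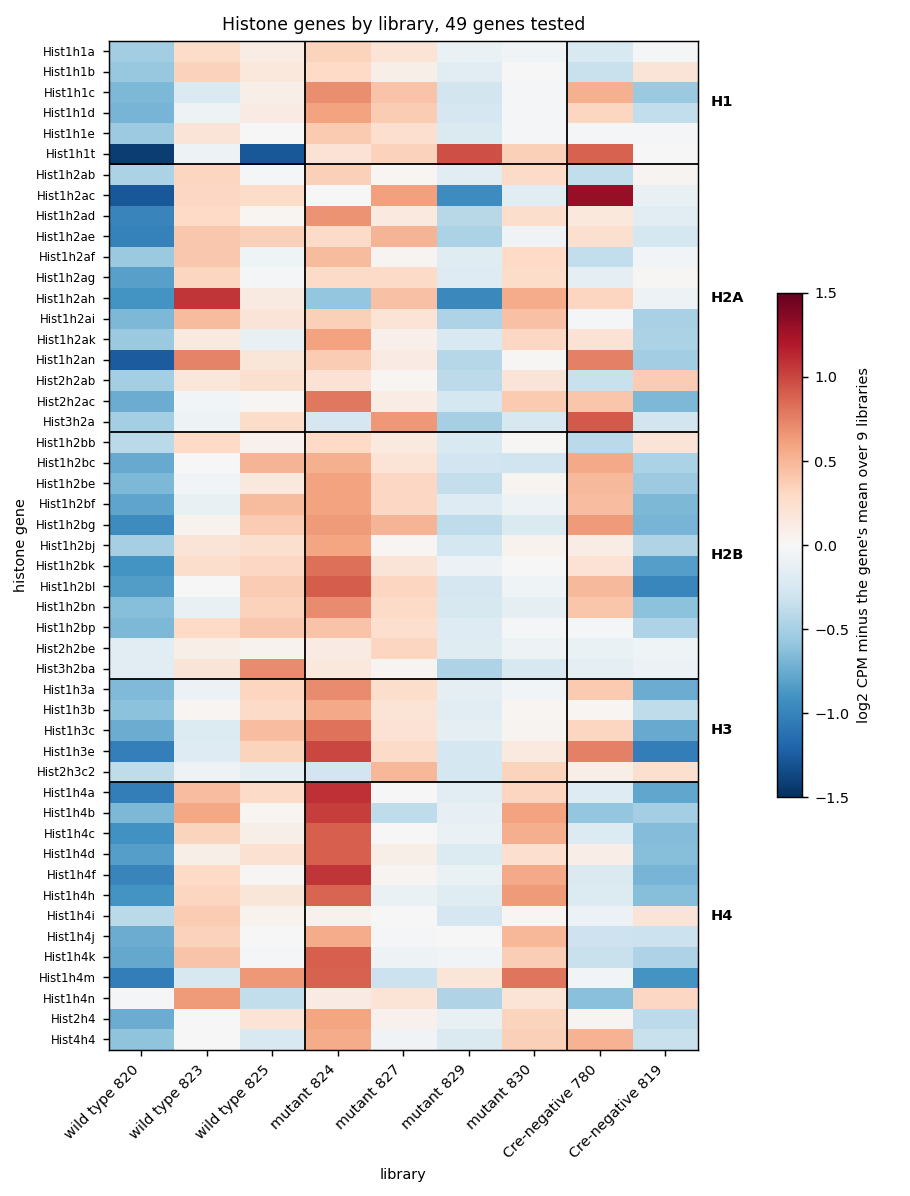
Log2 CPM of the 49 tested histone genes (rows, by class) in each library (columns, by group, marked by the number that ends its name), relative to the gene's mean over the 9 libraries, from blue (lower) to red (higher). The column of wild type wt_Mx_pos_820 is blue in nearly all rows, that of mutant cKI_Mx_pos_824 is red in most, and the Cre-negative columns cKI_Cre_neg_780 and cKI_Cre_neg_819 differ from each other.

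Members did not move as a block between libraries. The CPM ratio of Hist1h1c to Hist1h1b was 0.825, 0.603 and 0.849 in wild-type libraries, 1.17, 1.12, 0.821 and 0.880 in mutant libraries, and 1.62 and 0.527 in Cre-negative libraries. The last 2 are the extremes of all 9. The ratio of Hist1h4f to Hist1h4i, both H4 genes of chromosome 13, ran from 1.09 in library cKI_Cre_neg_819 to 4.05 in library cKI_Mx_pos_824. Between the 2 Cre-negative libraries, 36 of 49 members were higher in cKI_Cre_neg_780. The median difference on the log2 scale was 0.48, with class medians of 1.03 for H2B and 1.07 for H3 against 0.35 for H1. It ran from -0.94 for Hist1h4n to 1.80 for Hist1h3e, which stood at 43.9 CPM in cKI_Cre_neg_780 and 12.6 CPM in cKI_Cre_neg_819. With 1 library on each side this has no replicate check.

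The histone order of libraries was not that of other S phase genes. The 40 S phase genes, among them those of the replicative helicase, summed to 6233, 10692 and 8461 CPM in wild-type libraries, 8442, 7751, 7021 and 7052 CPM in mutant libraries and 6203 and 8699 CPM in Cre-negative libraries. Library wt_Mx_pos_820 was low and wt_Mx_pos_823 high for S phase genes. The mutant library cKI_Mx_pos_824, highest for histones, was close to wild-type wt_Mx_pos_825 for S phase genes, and cKI_Cre_neg_780 was the lowest library for S phase genes with a histone share equal to that of wt_Mx_pos_823 at 3 digits. Whether the share of cells in S phase set the histone levels was not tested.

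**Figure D4:**
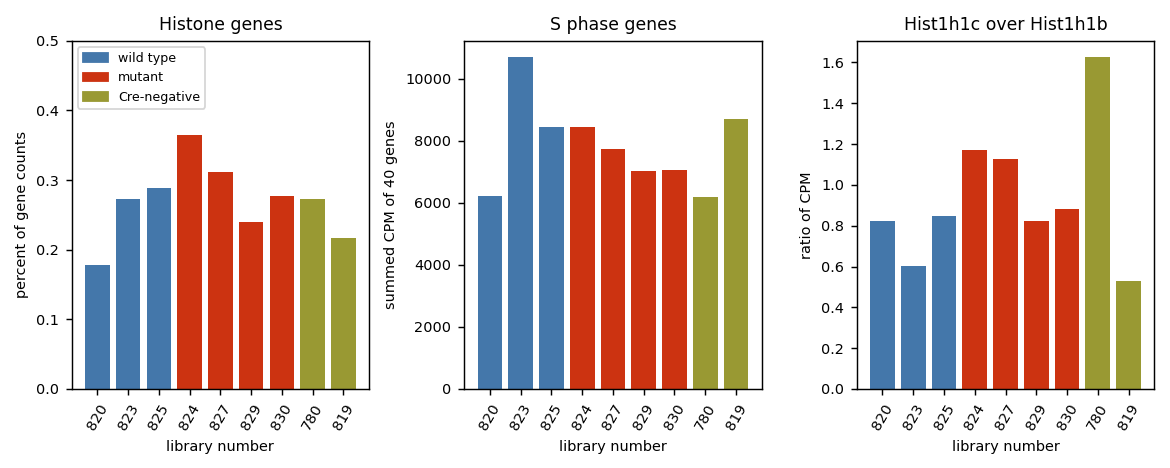
Bars show, for each library (marked by the number that ends its name), the percent of gene counts from histone genes, the summed CPM of 40 S phase genes and the CPM ratio of Hist1h1c to Hist1h1b, coloured by group. Histone share peaks in mutant cKI_Mx_pos_824 (0.364%), S phase CPM in wild type wt_Mx_pos_823 (10692) and the ratio in Cre-negative cKI_Cre_neg_780 (1.62).

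Mutant against wild type addresses the effect of the mutant allele when Cre is present on both sides. No histone gene passed: edgeR's quasi-likelihood test called 0 of 49 members and 0 of 18576 genes (0.0%), with member adjusted p of at least 0.998. At an unadjusted p under 0.05 the same test had 1 member, Hist1h1t, against 3.17% of all genes. DESeq2 called 36 genes (0.194%) and limma-voom with quality weights 13 (0.07%), with 0 members among either. The fitted log2 fold changes of 44 of 49 members were above 0, against 45.7% of all genes, with a median of 0.28 over members and -0.02 over all genes. The size of this leaning depended on single libraries: the median was 0.04 without wild-type wt_Mx_pos_820, with 32 of 49 above 0, and 0.11 without mutant cKI_Mx_pos_824, with 38 of 49 above 0. With any other library left out it was 0.26 to 0.42, with 40 to 48 of 49 above 0. Limma with quality weights, which gives outlying libraries less weight, had a median of -0.0003 with 24 of 49 above 0.

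By role, the mutant-minus-wild-type medians were 0.29 for H1, 0.10 for H2A, 0.18 for H2B, 0.32 for H3 and 0.38 for H4. Without wt_Mx_pos_820 they were 0.12, -0.10, 0.0004, 0.13 and 0.15 in the same order of classes, with 6 of 13 H2A genes and 6 of 12 H2B genes above 0. Without cKI_Mx_pos_824 they were 0.19, 0.11, 0.07, 0.15 and 0.23, and without wt_Mx_pos_823 0.40, 0.38, 0.23, 0.33 and 0.61. The testis linker histone Hist1h1t (ENSMUSG00000036211, chromosome 13, 23695814 to 23696725) had the lowest p. It stood at 0.205, 0.522 and 0.227 CPM in wild-type libraries, 0.639, 0.697, 1.08 and 0.703 CPM in mutant libraries, and 1.01 and 0.550 CPM in Cre-negative libraries. All mutant and Cre-negative libraries lay above all wild-type libraries, on 11 to 61 counts a library. Its mutant-minus-wild-type log2 fold change was 1.29 (SE 0.43) and its adjusted p in edgeR 0.998. It was the only member of 49 whose mutant libraries all lay above wild type, against 4.17% of all genes; 0 members had all mutant libraries below wild type, against 4.15%.

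Other members with the lowest p in this comparison overlapped between groups. Hist4h4, the single gene of the Hist4 group (ENSMUSG00000096010), stood at 15.3, 23.2 and 19.8 CPM in wild-type libraries and 34.2, 22.4, 20.0 and 29.7 CPM in the mutant, a log2 fold change of 0.45 (SE 0.25). Hist1h4f (ENSMUSG00000069274, chromosome 13, 23551258 to 23551648) stood at 10.6, 26.1 and 21.4 CPM and 44.5, 21.7, 19.7 and 31.3 CPM, a log2 fold change of 0.60 (SE 0.34). Hist2h2ac had a log2 fold change of 0.52 (SE 0.32), and library wt_Mx_pos_820 was again its lowest. On the other side, Hist3h2ba (ENSMUSG00000056895, chromosome 11, 58948920 to 58949533) stood at 2.57, 3.27 and 4.69 CPM in wild-type libraries and 3.19, 2.97, 2.08 and 2.43 CPM in the mutant, a log2 fold change of -0.40 (SE 0.25). The remaining negative values were -0.31 for Hist1h2ah, -0.10 for Hist1h4n, -0.08 for Hist1h4i and -0.05 for Hist1h2an. None of these passed, with an adjusted p of 0.998 each in edgeR.

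Cre-negative against wild type sets the unrecombined conditional allele without Cre beside the wild-type allele with Cre, so the allele and the lack of Cre cannot be told apart. EdgeR called 0 of 49 members and 0 of 18576 genes (0.0%), and 1 member, again Hist1h1t, had an unadjusted p under 0.05, against 5.23% of all genes. DESeq2 called 59 genes (0.318%) and limma-voom 0 (0.0%), with 0 members in each. Of 49 log2 fold changes, 22 were above 0, against 53.2% of all genes, with a median of -0.04 over members and 0.02 over all genes. Limma-voom with quality weights had 11 of 49 above 0 and a median of -0.23. The median was -0.28 without wild-type wt_Mx_pos_820 (7 of 49 above 0), -0.41 without Cre-negative cKI_Cre_neg_780 (10 of 49) and 0.08 without cKI_Cre_neg_819 (27 of 49). Hist1h1t had a log2 fold change of 1.29 (SE 0.49, edgeR adjusted p = 0.846). Both Cre-negative libraries lay above all wild-type libraries for this gene and for Hist2h3c2, an H3 gene at 2.16, 2.67 and 2.54 CPM in wild-type libraries and 2.99 and 3.32 CPM in Cre-negative libraries, which is 2 of 49 members against 6.25% of all genes. In the other direction there were 0 members, against 5.12%. Of Hist2h3c2, 36.5% of windows were unique, and its log2 fold change was 0.36 (SE 0.29).

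By class, the medians were 0.13 for H1, 0.06 for H2A, -0.04 for H2B, 0.02 for H3 and -0.31 for H4, where 2 of 13 genes were above 0. The order of classes depended on single libraries. Without cKI_Cre_neg_780 the medians were -0.01, -0.24, -0.54, -0.68 and -0.57, so H3 was the lowest, and without cKI_Cre_neg_819 they were 0.27, 0.18, 0.35, 0.39 and -0.15. Without wt_Mx_pos_820 they were -0.08, -0.23, -0.25, -0.21 and -0.61. Without wt_Mx_pos_823 they were 0.20, 0.25, -0.003, -0.009 and -0.07. The H4 genes with the lowest p among negative values were Hist1h4b (-0.61, SE 0.46), Hist1h4a (-0.50, SE 0.47) and Hist1h4k (-0.36, SE 0.36). Hist1h4b lies within the antisense gene 4930558J22Rik, and counting by strand is not stated. The replication histone Hist1h2ac had a log2 fold change of 0.83 (SE 0.54), with library cKI_Cre_neg_780 at 25 CPM beside 9.36 CPM in cKI_Cre_neg_819. Its model of 2482 bases has 2010 past the stem-loop and shares 108 bases with the rRNA gene Gm24991 on the same strand. Hist3h2ba was at -0.40 and Hist4h4 at 0.41. None passed, with an edgeR adjusted p of 0.9998 for each.

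Mutant against Cre-negative sets the recombined allele with Cre beside the same allele without Cre, and its lowest p-values among members were in H4. Of 13 H4 genes 12 had a log2 fold change above 0, with a class median of 0.73, against 0.15 for H1, 0.21 for H2A, 0.17 for H2B and 0.30 for H3; the classes were not compared by a test. H4 did not stand apart from the others in every fit: without cKI_Cre_neg_780 the medians of H1, H2A, H2B, H3 and H4 were 0.37, 0.31, 0.72, 1.02 and 0.95. Without cKI_Cre_neg_819 they were 0.04, 0.03, -0.05, -0.02 and 0.62, and without cKI_Mx_pos_824 0.07, 0.08, 0.09, 0.14 and 0.54. Hist1h4f, with the lowest p of any member, stood at 44.5, 21.7, 19.7 and 31.3 CPM in mutant libraries and 18.2 and 13.1 CPM in Cre-negative libraries. All mutant libraries lay above both Cre-negative ones, and library cKI_Mx_pos_824 was the highest. Its log2 fold change was 0.90 (SE 0.40, edgeR adjusted p = 0.912).

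Non-overlap was seen for 7 of 49 members in this direction, against 5.09% of all genes, and for 0 in the other, against 7.27%. All 7 encode H4: Hist1h4a, Hist1h4b, Hist1h4c, Hist1h4f, Hist1h4h, Hist1h4j and Hist1h4k. Hist1h4c stood at 43.6, 23.5, 22.0 and 34.3 CPM in mutant libraries and 20.4 and 15 CPM in Cre-negative libraries, a log2 fold change of 0.80 (SE 0.36). The values for Hist1h4b and Hist1h4k were 0.94 (SE 0.45) and 0.73 (SE 0.35). Hist1h4i, whose promoter is printed beside that of Hist1h4f, was the H4 gene below 0, at -0.09 (SE 0.21), with 11, 10.6, 8.80 and 10.7 CPM in mutant libraries and 9.88 and 12 CPM in Cre-negative libraries. For Hist1h4f, wild-type libraries wt_Mx_pos_823 and wt_Mx_pos_825 stood at 26.1 and 21.4 CPM, within the mutant range, and wt_Mx_pos_820 at 10.6 CPM, below all mutant and Cre-negative libraries.

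EdgeR called 0 of 49 members and 0 of 18576 genes (0.0%) here too. At an unadjusted p under 0.05 there was 1 member, Hist1h4f, against 5.26% of all genes; DESeq2 called 21 genes (0.113%) and limma-voom 0 (0.0%), with 0 members in each. Over all classes 41 of 49 members were above 0, against 44.2% of all genes, with a median of 0.23 over members and -0.03 over all genes. Of 13 H4 genes, 11, 11 and 12 were above 0 without mutant cKI_Mx_pos_824, Cre-negative cKI_Cre_neg_780 and cKI_Cre_neg_819. Over all members the median was 0.13 without cKI_Mx_pos_824, 0.63 without cKI_Cre_neg_780 and 0.09 without cKI_Cre_neg_819. Library cKI_Cre_neg_819, with the highest erythroid markers, also had the highest sum of 42 G2 and M phase genes, at 10201 CPM, and cKI_Cre_neg_780 had the lowest, at 6087 CPM. Their part in these differences was not tested. The most negative members were Hist1h2ac (-0.78, SE 0.51) and Hist3h2a (-0.46, SE 0.39), followed by Hist1h2an at -0.19. Hist3h2a (ENSMUSG00000078851, chromosome 11, 58954685 to 58956830) lies within Trim17 on the same strand, so reads of both cannot be fully told apart.

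**Figure D5:**
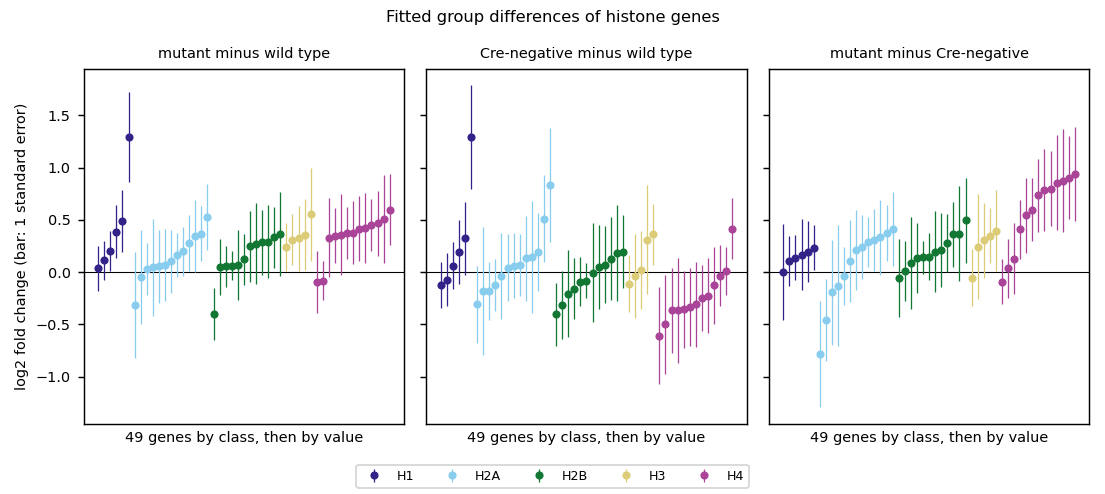
Fitted log2 fold change of the 49 tested histone genes in each comparison, ordered by class and then by value, with bars of 1 standard error from edgeR. H4 genes (purple) have medians of 0.38, -0.31 and 0.73 from left to right, and Hist1h1t is the highest H1 point in the first 2 panels; the comparisons share libraries.

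No factor that transcribes or processes histone mRNA passed the test. Of 32 tested, edgeR called 0 in each direction in all 3 comparisons, with 1, 2 and 3 at an unadjusted p under 0.05 in the order mutant minus wild type, Cre-negative minus wild type and mutant minus Cre-negative. Their medians were -0.08, -0.01 and -0.10. Slbp, which encodes the stem-loop binding protein, stood at 123, 181 and 150.4 CPM in wild-type libraries, 140.4, 139, 130.5 and 129 CPM in mutant libraries, and 115 and 183 CPM in Cre-negative libraries. Its highest libraries, cKI_Cre_neg_819 and wt_Mx_pos_823, were also the highest for S phase genes, while histone levels in cKI_Cre_neg_819 were low. Npat, a coactivator of histone gene transcription, had a mutant-minus-wild-type log2 fold change of -0.17 (SE 0.13). Casp8ap2, a component of the nuclear histone locus body, was at -0.20 (SE 0.14), and Eri1, an exonuclease that trims histone mRNA ends, at -0.19 (SE 0.14). Lsm10 and Lsm11, proteins of the U7 particle that guides cleavage after the stem-loop, were at 0.14 and -0.03. Ccne1, whose cyclin drives entry into S phase, had a mutant-minus-Cre-negative value of -1.22 (SE 0.42); it stood at 52.5 CPM in library cKI_Cre_neg_819 and at 11.8 to 17.8 CPM in the other 8.

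Variant histones, which are made outside replication, also had no call among 11 tested in any comparison in edgeR, with 1 gene at an unadjusted p under 0.05 in each. H2afy2, a macroH2A gene, stood at 4.69, 10.1 and 7.68 CPM in wild-type libraries and 4.71, 4.63, 4.84 and 3.76 CPM in the mutant, a log2 fold change of -0.74 (SE 0.31). H1f0, the linker histone of resting and differentiated cells, stood at 202, 227, 146 and 142 CPM in mutant libraries and 142 and 91.0 CPM in Cre-negative libraries (0.62, SE 0.27). S phase genes had a mutant-minus-wild-type median of -0.16, with 1 of 40 above 0, where 44 of 49 replication-dependent histone members were above 0; none of either set passed. G2 and M phase genes had a median of -0.12 over 42. Of 10 short RNAs without poly(A), none passed, and their median was -0.09. Among these Scarna2, a guide RNA of the Cajal body, had the lowest p (0.37, SE 0.12, edgeR adjusted p = 0.998). Neutrophil markers (14 genes, median 1.42, summed 64.3 to 181 CPM in wild-type libraries and 145 to 458 CPM in the mutant) and B cell markers (15 genes, median 0.68, summed 258 to 392 CPM and 337 to 426 CPM) had higher medians in the mutant as the histone genes did, with 0 markers called in edgeR. In Cre-negative minus wild type the neutrophil and B cell medians were 1.18 and 0.52, where the histone median was -0.04. In mutant minus Cre-negative they were 0.43 and 0.05, where the histone median was 0.23. The part of these markers in the histone values was not tested.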

How the data were processed

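Per the labels' protocols, LSK cells were sorted from lineage-depleted bone marrow and total RNA was made into stranded libraries after removal of ribosomal RNA. The submitters' processing notes name STAR, HTSeq 0.5.3p3 and DESeq2 with mm10 (GRCm38); how strand was set in counting, and with which annotation, is not given in the sources used here. The authors deposited raw counts per Ensembl gene, which entered all tests, and a table whose unit is a scaled signal. This deposited signal equals the counts divided by 1 factor per library (largest relative deviation 5.11e-15) and was not tested. Left out were 5 rows without a gene, which summed to 40.5% to 47.3% of a library. GENCODE M21 gave symbols for 37607 of 39179 identifiers.

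Low genes were removed by filterByExpr and libraries scaled with TMM factors. EdgeR 4.0.16 (R 4.3.3) gave quasi-likelihood tests from 1 fit of the 9 libraries, a mean for each group, with Benjamini-Hochberg adjustment over 18576 genes at 0.05, two-sided, and was tested on simulated data. Standard errors are the log2 fold change over the square root of F. CPM use TMM-scaled totals; levels of different genes are given per kilobase of exon, over the union of the gene model. Uniqueness of 50-base windows was computed against GENCODE transcripts of other genes and not, as planned, against a genome. Deviations of the tested members from their gene means use log2 CPM with nothing added. DESeq2 1.42.0, limma 3.58.1, other scalings and filters, fits of only the compared groups and each library left out were alternatives. Members named are the 3 highest per kilobase in each class, the 4 with the lowest p in each direction of each comparison, and the Hist3 and Hist4 genes; other genes are Dnmt3a, 6 histone mRNA factors and up to 3 per list and comparison with the lowest p. Others were named after their values were seen, as extremes (Hist1h3e, Hist2h2be), partners in pairs or genes that did not overlap between groups. Members, lists and rules were chosen with earlier results of these data known.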

Additional observations from a re-analysis of the deposited data

Results flagged for a closer look

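In the group of 4 mutant libraries, 34 values of the named members and class shares were examined for 1 library far from the other 3 (a gap over the range above Dixon's 95% critical value), and 4 were found; chance gives about 1 in 20. Hist1h1t was at 1.08 CPM in library cKI_Mx_pos_829, against 0.639 to 0.703 CPM in the other 3. Hist1h4n was at 4.50 CPM in library cKI_Mx_pos_829, against 6.67 to 7.09 CPM. Hist3h2a was at 10.5 CPM in library cKI_Mx_pos_827, against 4.70 to 5.60 CPM. The H3 share of histone counts was 5.49% in library cKI_Mx_pos_824, against 4.68% to 4.79%.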

How the results depend on the processing

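No histone member was called by edgeR, DESeq2 or limma-voom under any alternative run, at thresholds of 0.05 or 0.1. No paired analysis was possible because the groups share no library number. Over all genes, DESeq2 called 36, 59 and 21 (mutant minus wild type, Cre-negative minus wild type, mutant minus Cre-negative) and limma-voom 13, 0 and 0, against 0 in edgeR. With 1 library left out, edgeR's counts in the last 2 comparisons ranged from 0 to 650 (without cKI_Cre_neg_780; 62 without cKI_Cre_neg_819) and from 0 to 1835 (without cKI_Cre_neg_780; 9 without cKI_Cre_neg_819); the lone Cre-negative library was then assumed to vary like the other groups. Member medians ranged from 0.04 to 0.42, -0.41 to 0.08 and 0.09 to 0.63 over the left-out libraries.

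Of 405 alternative values for the 24 log2 fold changes of named members, 13 turned sign. Limma-voom gave 0.19 for Hist1h4n in mutant minus wild type. The others came from left-out libraries, with ranges of -0.64 to 0.30 for Hist1h2ah, -0.24 to 0.13 for Hist1h4i and -0.28 to 0.24 for Hist1h4n in that comparison. In Cre-negative minus wild type they were -0.072 to 1.36 for Hist1h2ac and -0.11 to 0.77 for Hist4h4. In mutant minus Cre-negative they were -1.30 to 0.14 for Hist1h2ac, -0.91 to 0.31 for Hist3h2a, -0.18 to 0.083 for Hist1h4i and -0.67 to 0.62 for Hist1h2an. The cause was not tested.

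Restricted to the 12 members with at least 80% unique windows, the mean histone share was 0.153%, 0.186% and 0.153% of gene counts in wild-type, mutant and Cre-negative libraries. H1 then took 88.7%, 87.8% and 88.6% of histone counts, H2A 0.592%, 0.540% and 1.05%, H2B 3.55%, 3.5% and 3.62%, and H4 7.11%, 8.19% and 6.75%; no H3 gene was left. Per kilobase of unique windows 9 of the 15 leading members were the same. These values move because fewer members enter, and the cut kept most H1 genes and few core histone genes. Class medians with each library left out, and histone shares likewise, were added after seeing the data. Hist1h1t rests on 11 to 61 counts a library, which limits its precision.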
